A study of Mus musculus with 8 samples.

Results

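Egr1, Egr2, Egr3, Nr4a1, Nr4a2, Nr4a3, Cd69, Cd83 and Cd44 were followed across sorted mouse CD4+ T cells, as 9 genes known to respond to signals from the T cell receptor, out of 18193 genes with a probe set. Their probe sets were found by symbol in the platform annotation, and they were measured by 21 of the 45037 probe sets tested. The cells carried a Foxp3 allele tagged with EGFP (enhanced green fluorescent protein), either wild type (WT) or a mutant that the labels call delta, and were sorted by EGFP fluorescence. EGFP+ cells were measured on 3 arrays of each allele and EGFP- cells on 1 array of each. The tag was thus shared by all groups, and the series' design text gives hemizygous males as the source of the EGFP+ cells. The sources used here name neither strain, age and tissue nor what the mutation removes.

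Each sample was hybridised to 1 Affymetrix array, and array medians lay between 53.3 and 54.8 intensity units. Cd4 ranked between the 96.9 and 97.8 percentile of all probe sets in every array and Cd3e between the 98.8 and 99.5 percentile. The Foxp3 probe set read 4.75, 4.86 and 4.64 (log2 intensity) in the arrays labelled WT EGFP+ and 11.10, 11.51 and 11.21 in those labelled mutant EGFP+. It read 4.52 in the WT EGFP- array and 6.14 in the mutant EGFP- array. By this probe set alone, the low reading goes against the WT EGFP+ label. The sources used here do not place the probe set relative to the tag or the mutation. Other genes, picked from those named below, read higher in the WT EGFP+ arrays. They are named because they passed this same comparison, so they are no separate check of the label. Ikzf2, a factor typical of regulatory T cells, was 4.18 higher in the WT EGFP+ arrays than in the single WT EGFP- array. Il2ra was 4.56 higher and Ctla4 5.48 higher. The gap was smaller for the mutant. Its EGFP- array read 11.48 for Ikzf2, 7.47 for Il2ra and 9.26 for Ctla4. Its EGFP+ arrays read 12.09 to 12.12, 9.06 to 9.45 and 10.12 to 11.53. These genes bear on the EGFP sort and not on which allele the arrays carry. Every direction between alleles below therefore rests on the labels. WT EGFP+ replicate 2 stood apart from the other 2 arrays of its label in several of the 9 genes, and the allele differences of the genes it moves are also given without it. This array was singled out by the values of these same genes, and leaving it out narrows the spread of those it moves. The p-values and counts without it therefore describe how far results hang on 1 array and are not separate evidence. Whether replicates are separate animals is not stated, so the p-values reflect array-to-array spread that could be purely technical. The EGFP- groups hold 1 array each and were assumed to vary like the EGFP+ groups.

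The Egr proteins are zinc finger transcription factors whose genes are switched on soon after receptor engagement, that of Egr1 chiefly through the MAP kinase pathway and serum response factor. The Nr4a proteins are orphan nuclear receptors that act without a known ligand, are induced by calcium and kinase signals, and are known to promote Foxp3 expression and regulatory T cell development. Egr2 and Egr3 are known for limiting T cell activation and for their part in anergy. Cd69 is an early activation marker that holds T cells in tissue by binding the egress receptor S1pr1, Cd83 is an immunoglobulin family protein on activated lymphocytes and dendritic cells, and Cd44 is the hyaluronan receptor that stays high on activated and memory T cells.

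Start site sequences of the Nr4a family and of Egr2 are shown because the 3 Nr4a genes moved together between arrays and because Egr2 carried the single call between alleles. They are RefSeq sequences of build GRCm38.p6, and the choice of genes and motifs was made after the values were seen. For each Nr4a gene the 250 bases before the start are printed in the direction of transcription, with the core of the cyclic AMP response element (TGACG, or CGTCA on the other strand) in capitals: Nr4a1 at chr15:101266596-101266845 (+), Nr4a2 at chr2:57124004-57124253 (-) and Nr4a3 at chr4:48045055-48045304 (+).
Nr4a1: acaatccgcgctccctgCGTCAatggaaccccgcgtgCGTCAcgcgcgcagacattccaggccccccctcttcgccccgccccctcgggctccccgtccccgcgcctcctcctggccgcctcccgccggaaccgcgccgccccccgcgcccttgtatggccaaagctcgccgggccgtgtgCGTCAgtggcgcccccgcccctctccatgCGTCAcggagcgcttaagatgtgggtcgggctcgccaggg
Nr4a2: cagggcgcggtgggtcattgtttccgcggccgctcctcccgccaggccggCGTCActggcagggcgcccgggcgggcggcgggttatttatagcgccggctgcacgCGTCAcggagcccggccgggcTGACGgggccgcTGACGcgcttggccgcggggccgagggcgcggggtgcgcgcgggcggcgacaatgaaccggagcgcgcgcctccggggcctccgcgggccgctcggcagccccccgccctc
Nr4a3: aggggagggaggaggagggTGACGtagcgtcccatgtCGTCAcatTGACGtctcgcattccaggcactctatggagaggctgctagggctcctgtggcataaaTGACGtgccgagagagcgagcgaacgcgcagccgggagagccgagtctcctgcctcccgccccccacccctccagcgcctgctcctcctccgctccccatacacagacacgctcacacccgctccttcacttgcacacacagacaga
Each of the 3 windows held 4 such cores and no 2 of them overlapped. They began 233, 213, 69 and 40 bases before the start in Nr4a1, 200, 144, 123 and 111 in Nr4a2, and 231, 213, 205 and 147 in Nr4a3. Of all 32851 windows of 300 bases in the RefSeq table, 20.8% held at least 1 such core and 0.231% held at least 4. For Egr2 the table gave 5 windows, and 2 distinct CArG boxes, the serum response factor motif, lay in them. They are printed with 10 bases on either side and the box in capitals, from chr10:67537484-67537513 (+) and chr10:67537787-67537816 (+).
Egr2 upstream box: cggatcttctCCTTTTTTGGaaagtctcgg
Egr2 downstream box: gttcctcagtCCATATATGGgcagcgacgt
A CArG box on either strand was present in 1.63% of all windows. The 3 later, overlapping Egr2 windows also held 2 of the cyclic AMP cores each, and the Cd44 window held neither motif. These matches describe letters and not binding.

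Between the alleles in EGFP+ cells, none of the 9 leading probe sets passed the test. A gene's leading probe set is the one with the highest mean over all arrays. In limma's moderated test, with p-values adjusted by Benjamini-Hochberg over every probe set, 0 of 9 genes passed an adjusted p of 0.05, against 16.5% of all genes (10.4% higher and 6.02% lower in the mutant). At an unadjusted p under 0.05 the count was 3 (Egr2, Egr3 and Nr4a3). Arrays of the 2 labels did not overlap for Egr2 and Egr3, both higher in the mutant, or 2 of 9 genes against 34.2% of all genes in either direction and 20.2% higher. The count of calls depended on 1 array. Without WT EGFP+ replicate 2 it was 4 of 9 (Egr2 and Egr3 higher, Nr4a1 and Nr4a3 lower in the mutant), against 19.1% of all genes. Leaving out any other single EGFP+ array gave a count of 0.

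**Figure D1:**
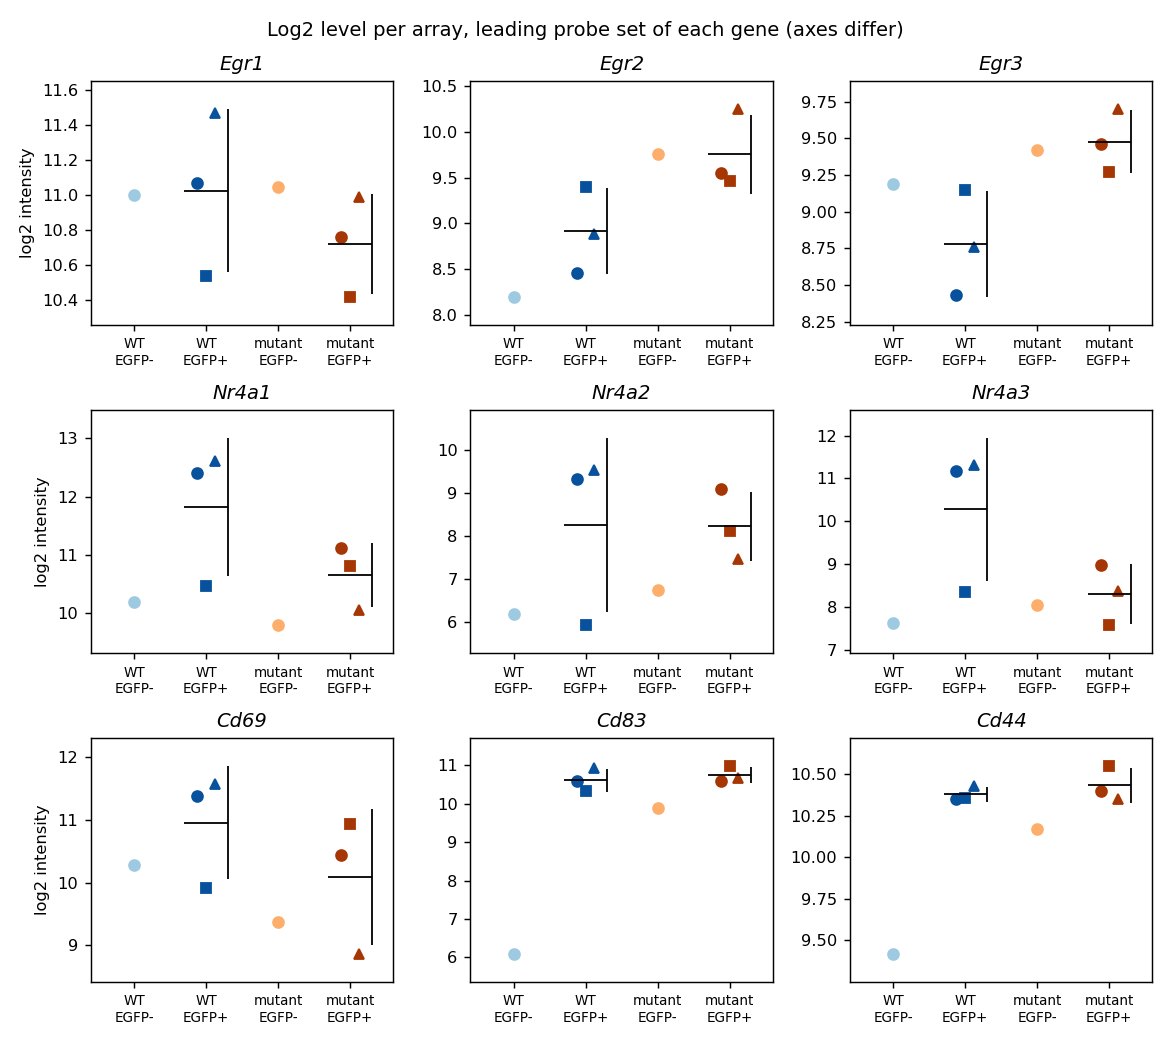
Log2 intensity of the leading probe set of each of the 9 genes (y axes differ between panels) in the 4 groups. Circles, squares and triangles are replicates 1, 2 and 3, horizontal bars are means and vertical bars 1 SD to either side (n = 3); single points are the EGFP- arrays. Cd83 stands at 6.10 in the WT EGFP- array and between 9.90 and 10.98 in the other arrays, while the Nr4a genes of WT EGFP+ replicate 2 lie apart from the other 2 arrays of that label.

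Egr2 read higher in both sorts of mutant cells. Its leading probe set, 1427683_at, stood at 8.46, 9.40 and 8.89 in the WT EGFP+ arrays and at 9.55, 9.47 and 10.25 in the mutant EGFP+ arrays. The lowest mutant array lay only just above the highest WT array, replicate 2. The difference was 0.84 on the log2 scale (SE 0.28, 95% interval 0.18 to 1.49, limma adjusted p = 0.1), and 1.08 without WT EGFP+ replicate 2 (adjusted p = 0.024). With the mean of the handling genes described below as a covariate it was 0.12 (0.84). That covariate is itself tied to the allele and holds early genes that receptor signals also induce. The second probe set of Egr2, 1427682_a_at, was the 1 of 21 probe sets that passed the test, against 12.7% of all probe sets. It stood at 7.98, 8.19 and 7.76 in the WT and at 9.11, 8.56 and 9.18 in the mutant EGFP+ arrays, with all mutant arrays above all WT arrays. It rose 1.96-fold (difference 0.97, SE 0.19, limma adjusted p = 0.015). That call was lost without WT EGFP+ replicate 1 (0.057) or 3 (0.058), without mutant EGFP+ replicate 1 (0.067), with 3 sets of neighbouring sample numbers, taken from the titles, as a block (0.052) and with the same covariate (0.17), within 0.0087 to 0.17 over all alternatives. The mean of both Egr2 probe sets differed by 0.90 (adjusted p = 0.018). In bulk RNA of this kind, more cells with Egr2 and more Egr2 RNA per cell cannot be told apart.

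Egr2 did not pass the test between EGFP+ and EGFP- cells of either allele. The single EGFP- arrays read 8.20 (WT) and 9.76 (mutant) in the leading probe set and 7.58 and 8.98 in the second. The mutant EGFP- array was thus 2.95-fold and 2.63-fold above the WT EGFP- array, with no replicate to set this against. All 4 mutant arrays, whatever their EGFP label, lay above all 4 WT arrays in both probe sets. How many other genes separate the arrays in this way was not counted. In the EGFP+ arrays alone the labels did not overlap for 34.2% of all genes, in either direction. The single EGFP- arrays are not replicates of the EGFP+ arrays. In the leading probe set the EGFP difference was 0.72 (SE 0.40, limma adjusted p = 0.67) for WT and 0.00 (SE 0.40, adjusted p = 1; 95% interval -0.93 to 0.92) for the mutant.

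Egr3, a close relative of Egr2, also read higher in the mutant EGFP+ arrays by its leading probe set, with a smaller difference. Its leading probe set stood at 8.43, 9.15 and 8.76 in the WT and at 9.46, 9.27 and 9.70 in the mutant EGFP+ arrays, and at 9.19 and 9.42 in the WT and mutant EGFP- arrays. The mutant arrays lay above the WT arrays without overlap, but WT replicate 2 came within reach of the lowest mutant array. The difference of 0.70 (SE 0.20, 95% interval 0.23 to 1.16) did not pass (limma adjusted p = 0.063). It passed with array weights (0.029), with a trended and robust variance (0.046), among probe sets above the median level (0.048) without WT EGFP+ replicate 2 (0.012) and without that array and mutant EGFP+ replicate 3 (0.018). It was 0.27 with the handling genes as a covariate (0.57), with the same limit as for Egr2. Its other probe set differed by -0.01 (SE 0.13). Unlike Egr2, the leading Egr3 probe set read lower in all WT EGFP+ arrays than in the WT EGFP- array. That EGFP difference was -0.41 (SE 0.28, limma adjusted p = 0.76) for WT, and 0.06 (SE 0.28, 0.98) for the mutant.

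Egr1, a standard marker of immediate-early induction, did not separate the groups. It stood at 11.07, 10.54 and 11.47 in the WT EGFP+ arrays, at 10.76, 10.42 and 10.99 in the mutant EGFP+ arrays and at 11.00 and 11.05 in the WT and mutant EGFP- arrays. In both EGFP+ groups replicate 2 was lowest and replicate 3 highest. The allele difference was -0.31 (SE 0.25, 95% interval -0.88 to 0.27, limma adjusted p = 0.54), and -0.55 without WT EGFP+ replicate 2 (0.11). The EGFP difference was 0.02 (SE 0.35) for WT and -0.33 (SE 0.35) for the mutant.

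The Nr4a genes varied more between arrays of one label than nearly all other probe sets. Nr4a1 stood at 12.41, 10.46 and 12.61 in the WT EGFP+ arrays, at 11.12, 10.81 and 10.05 in the mutant EGFP+ arrays and at 10.19 and 9.79 in the WT and mutant EGFP- arrays. WT replicates 1 and 3 lay above every other array, while WT replicate 2 lay among the mutant arrays. The SD over the 3 WT EGFP+ arrays was 1.19, at the 99.6 percentile of all probe sets, against a median SD of 0.16. The allele difference of -1.17 (SE 0.55, 95% interval -2.45 to 0.12) did not pass (limma adjusted p = 0.25). Without WT EGFP+ replicate 2 it was -1.85 (adjusted p = 0.0046). Without WT replicate 1 it was -0.87 (0.53), and without WT replicate 3 it was -0.77 (0.54). Within the 3 sets of neighbouring title numbers it was -1.29, 0.35 and -2.56, with the sign turned in the set that holds WT replicate 2.

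Nr4a3 showed the widest gap between WT replicates 1 and 3 and the mutant arrays. It stood at 11.18, 8.35 and 11.31 in the WT EGFP+ arrays, at 8.98, 7.58 and 8.38 in the mutant EGFP+ arrays and at 7.63 and 8.06 in the WT and mutant EGFP- arrays. WT replicate 2 again fell within the range of the mutant arrays. The allele difference was -1.96 (SE 0.76, 95% interval -3.73 to -0.20, limma adjusted p = 0.15), and -2.93 without WT EGFP+ replicate 2 (adjusted p = 0.0016). Without WT replicate 1 it was -1.51 (0.4), and without WT replicate 3 it was -1.45 (0.38). It passed with array weights (-2.44, 0.039) and with the title numbers as a block (-1.96, 0.041). Within the 3 sets of neighbouring title numbers the mutant array lay below the WT array each time, by -2.20, -0.77 and -2.93.

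Nr4a2 had the widest range of the 9 genes within the WT EGFP+ arrays, and did not pass the test between the alleles. The leading probe set stood at 9.31, 5.92 and 9.54 in the WT and at 9.08, 8.10 and 7.47 in the mutant EGFP+ arrays, and at 6.18 and 6.73 in the WT and mutant EGFP- arrays. WT replicate 2 was the lowest of all 8 arrays. The allele difference was -0.04 (SE 0.91, 95% interval -2.15 to 2.08, limma adjusted p = 0.99), an interval wide enough to hold a 4-fold change either way. With WT EGFP+ replicate 2 left out it was -1.21 (adjusted p = 0.083). With WT replicate 1 left out it was 0.49 (0.87), and with WT replicate 3 left out it was 0.60 (0.81). Within the 3 title number sets it was -0.23, 2.18 and -2.07, so the direction was not the same from set to set.

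Against EGFP- cells of the WT allele, 2 of 9 genes passed the test, Cd83 and Cd44, against 1.5% of all genes. Both rose, as 1.02% of all genes did, while 0.478% fell. For 5 of the 9 genes all 3 EGFP+ arrays lay above the EGFP- array, against 25.2% of all genes, and for 1, Egr3, all lay below it, where 55.1% of all genes had all 3 arrays on 1 side. The median difference of the 9 genes was 0.96, and that of all genes -0.02. Without WT EGFP+ replicate 2 the count was 5 of 9, against 3.19% of all genes, with the 3 Nr4a genes added.

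**Figure D2:**
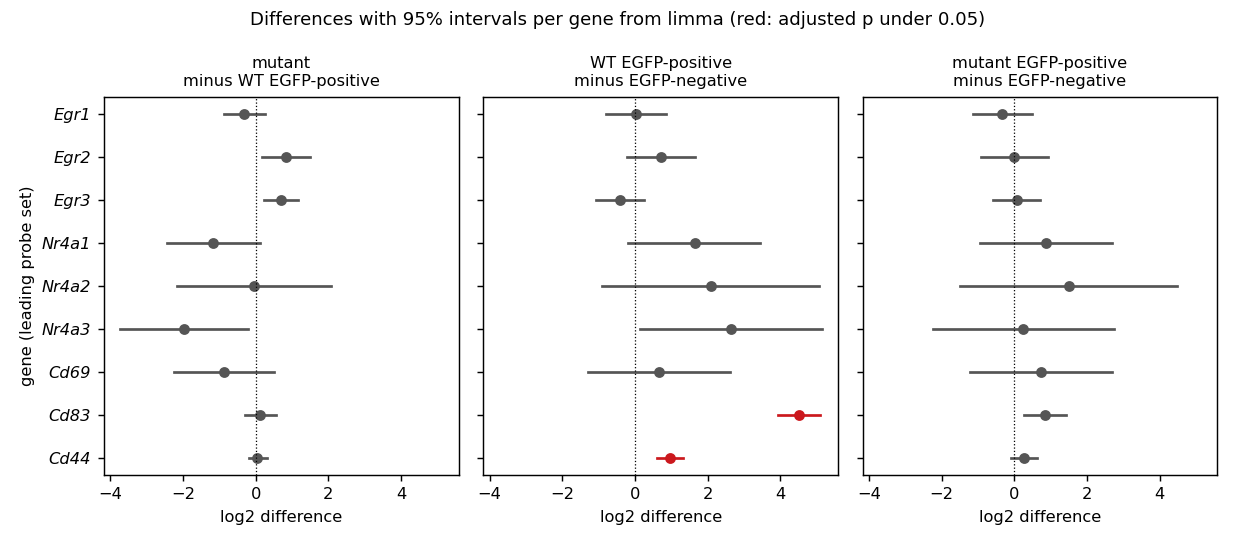
Log2 difference (x axis) of the leading probe set of each gene in 3 comparisons, with the 95% interval of limma's fit for that gene, not adjusted over genes. Red marks an adjusted p under 0.05, reached by Cd83 (4.51) and Cd44 (0.96) between EGFP+ and EGFP- WT cells; the intervals of the Nr4a genes and Cd69 are the widest.

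Cd83 stood at 10.60, 10.32 and 10.92 in the WT EGFP+ arrays and at 6.10 in the WT EGFP- array. It rose 22.8-fold (difference 4.51, SE 0.25, 95% interval 3.93 to 5.10, limma adjusted p = 0.00092). In the arrays labelled mutant it stood at 10.60, 10.98 and 10.66 with EGFP and at 9.90 without, so that the mutant EGFP- array read 13.9-fold above its WT counterpart. All 7 arrays other than the WT EGFP- one lay within a narrow band. The mutant EGFP difference was 0.85 (SE 0.25, adjusted p = 0.34), and the alleles did not differ beyond their spread in EGFP+ cells (0.13, SE 0.18, 95% interval -0.28 to 0.55, adjusted p = 0.74). The test of the difference between the 2 EGFP effects gave -3.67 (SE 0.36, limma adjusted p = 0.045), and 1 of 9 genes passed it, against 0.066% of all genes (0.044% in the same direction). That last call was lost when any single EGFP+ array except WT replicate 2 was left out (0.085 to 0.14) and under 3 further alternatives, within 0.0087 to 0.26 over all of them.

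Cd44 followed the same order on a smaller scale. Its leading probe set stood at 10.35, 10.36 and 10.43 in the WT EGFP+ arrays and at 9.42 in the WT EGFP- array. It rose 1.94-fold (difference 0.96, SE 0.15, limma adjusted p = 0.031). That call was lost without any single EGFP+ array except WT replicate 2 (0.056 to 0.11), with the title numbers as a block (0.22) and with the handling genes as a covariate (0.063), within 0.015 to 0.22 over the alternatives. A second Cd44 probe set, 1452483_a_at, rose by 1.56 (SE 0.19, adjusted p = 0.01) and lost its call with the title numbers as a block alone (0.088). In the arrays labelled mutant the leading probe set stood at 10.40, 10.55 and 10.35 with EGFP and 10.17 without (difference 0.26, SE 0.15, adjusted p = 0.65). The alleles differed by 0.05 in EGFP+ cells (SE 0.11, 95% interval -0.19 to 0.30, adjusted p = 0.84).

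Across the 8 arrays Cd69 went most closely with Nr4a1 (Pearson r 0.88), less so with Nr4a2 (0.68) and Nr4a3 (0.65). Its r with the other surface markers was low, at 0.15 for Cd83 and 0.19 for Cd44. Cd69 stood at 11.38, 9.92 and 11.57 in the WT EGFP+ arrays and at 10.45, 10.94 and 8.87 in the mutant EGFP+ arrays. The WT and mutant EGFP- arrays read 10.29 and 9.37. WT replicate 2 and mutant replicate 3 were the low arrays of their labels. Among the mutant EGFP+ arrays, replicate 2 was the highest for Cd69 and the lowest for Nr4a3. The allele difference was -0.87 (SE 0.59, 95% interval -2.25 to 0.51, limma adjusted p = 0.44), and -1.39 without WT EGFP+ replicate 2 (0.12). Within the 3 title number sets it was -0.93, 1.02 and -2.71. The EGFP difference was 0.67 (SE 0.84, adjusted p = 0.9) for WT, 1.18 without that array (0.53), and 0.72 (SE 0.84, adjusted p = 0.85) for the mutant.

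The Nr4a genes were also compared by EGFP within the WT allele. Nr4a1 differed by 1.64 (SE 0.78, limma adjusted p = 0.59), Nr4a2 by 2.08 (SE 1.29, 0.72) and Nr4a3 by 2.64 (SE 1.08, 0.49), none past the threshold. Without WT EGFP+ replicate 2 the differences were 2.32 (0.023), 3.24 (0.023) and 3.61 (0.0093). Without WT replicate 1 they were smaller, at 1.35, 1.55 and 2.19, and without WT replicate 3 at 1.25, 1.43 and 2.13. In WT replicate 2 itself Nr4a1 and Nr4a3 lay above the EGFP- array and Nr4a2 below it. For the mutant, Nr4a1 differed by 0.87 (SE 0.78), Nr4a2 by 1.49 (SE 1.29) and Nr4a3 by 0.25 (SE 1.08), with adjusted p of 0.8, 0.78 and 0.97.

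Of the 9 genes, 0 passed between mutant EGFP+ and EGFP- cells in limma's test, against 0.0879% of all genes (0.022% higher), and 1, Cd83, had an unadjusted p under 0.05. All 3 EGFP+ arrays lay above the EGFP- array for 4 of the 9, against 32.1% of all genes, and below it for 1, Egr1, where 60.1% of all genes had all 3 arrays on 1 side. Between the 2 EGFP- arrays, Egr2 and Cd83 were at least 2-fold higher in the mutant by their leading probe sets. None of the 9 was 2-fold lower, against 3.78% of all genes at least 2-fold higher and 4.82% in either direction. Among the other probe sets, 1427682_a_at of Egr2 (2.63-fold), 1452483_a_at of Cd44 (2.77-fold, 8.36 to 9.83) and 1455034_at of Nr4a2 (5.07 to 6.20) were also at least 2-fold higher. These differences have no replicate check.

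WT EGFP+ replicate 2, low in the Nr4a genes and Cd69, and mutant EGFP+ replicate 3, low in Nr4a1, Nr4a2 and Cd69, were the lowest arrays of their labels in other early genes too; Nr4a3 was lowest in mutant EGFP+ replicate 2, which was not low in them. A list of 23 handling genes that holds none of the 9 was split into 13 AP-1 and other early genes (Fos, Jun, Junb, Dusp1, Ier2 and the like) and 10 heat shock genes. Handling is only the name of the list. Early genes such as Fos and Jun also respond to receptor signals, as the 9 genes do. The mean log2 level of the 13 early genes was 10.93, 9.14 and 11.08 in the WT EGFP+ arrays, 9.85, 9.92 and 8.22 in the mutant EGFP+ arrays, and 9.95 and 9.12 in the WT and mutant EGFP- arrays. The mean of the 10 heat shock genes was 10.77, 10.83 and 10.53 in the WT and 10.03, 9.81 and 9.77 in the mutant EGFP+ arrays. WT replicate 2 was thus low in the early genes and not in the heat shock genes. With the mean of the 23 genes as a covariate the allele difference turned to 0.27 for Nr4a1 (limma adjusted p = 0.78), 2.20 for Nr4a2 (0.12) and 0.76 for Cd69 (0.14), and was -0.60 for Nr4a3 (0.81), 0.12 for Egr2 (0.84) and 0.27 for Egr3 (0.57). That mean was itself 10.86, 9.88 and 10.84 in the WT and 9.93, 9.87 and 8.89 in the mutant EGFP+ arrays. The covariate is thus tied to the allele. This fit can take away an allele difference, or one of receptor signals, along with one of handling. A further fit, chosen after the values were seen, left out the lowest array of each label in the mean of the 23 genes, WT replicate 2 and mutant replicate 3. Both arrays were also low in Nr4a1, Nr4a2 and Cd69, so leaving them out narrows the spread of these genes and the counts are descriptive. In that fit 6 of 9 genes passed between the alleles, against 18.5% of all genes. Egr2 (0.83) and Egr3 (0.77) were higher and Egr1 (-0.68), Nr4a1 (-1.55), Nr4a3 (-2.96) and Cd69 (-0.78) lower in the mutant. In the same fit 6 of 9 genes passed between WT EGFP+ and EGFP- cells, against 4.48% of all genes. Of the 23 handling genes themselves, 1 rose and 6 fell between the alleles over all arrays (10.4% and 6.02% of all genes), and 1 rose and 11 fell without WT EGFP+ replicate 2 (19.1% of all genes in either direction). The part of cell handling in these differences was not tested.

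**Figure D3:**
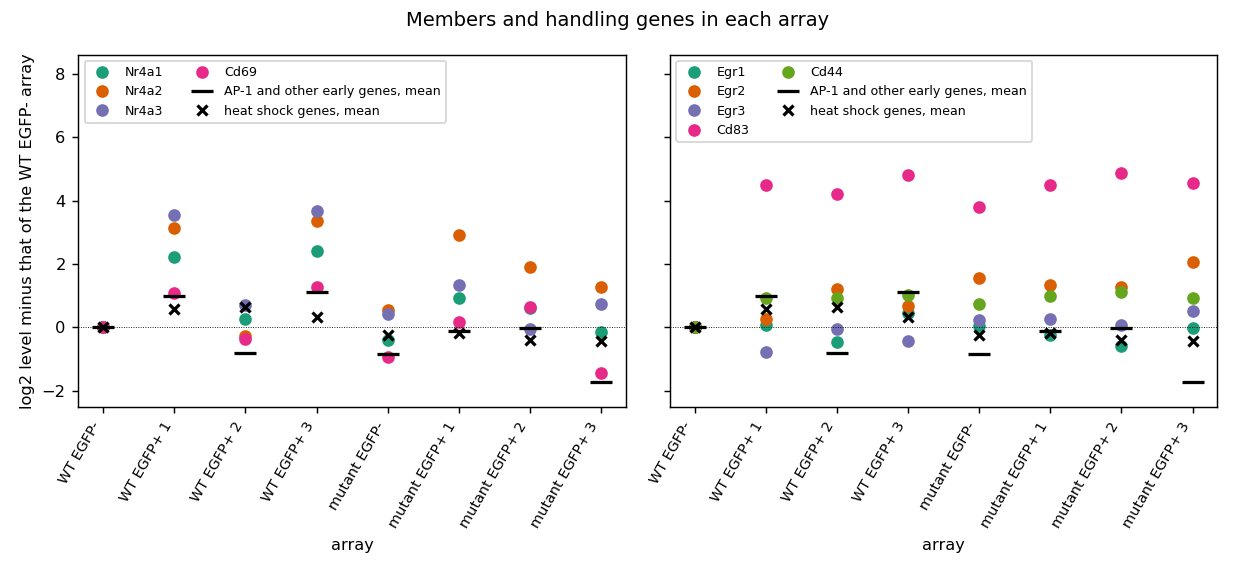
Log2 level in each of the 8 arrays (x axis) minus the level in the WT EGFP- array (y axis), for the Nr4a genes and Cd69 (left) and the Egr genes, Cd83 and Cd44 (right). Black dashes are the mean of 13 AP-1 and other early genes and crosses the mean of 10 heat shock genes; the early genes drop in WT EGFP+ 2 and mutant EGFP+ 3, as Cd69 does, while Cd83 stays at least 3.80 above the reference in all other arrays.

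Across the 8 arrays, Nr4a1 had a Pearson r of 0.84 with Nr4a2, 0.92 with Nr4a3 and 0.88 with Cd69. Cd69 had lower values with Nr4a2 (0.68) and Nr4a3 (0.65). Egr2 and Egr3 correlated at 0.76 with each other, and Egr3 at -0.83 with Nr4a1 and -0.82 with Cd69. Cd83 and Cd44 correlated at 0.99. Egr1 had no r above 0.66 with any of the others. These values describe 8 arrays that share 4 groups, and those of Cd83 and Cd44 are set largely by the WT EGFP- array.

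Probe sets of one gene did not always move alike. Of 6 Nr4a2 probe sets, 4 read far lower in WT replicate 2 than in replicates 1 and 3: besides the leading one, 1455034_at read 9.59, 4.71 and 9.68 in the WT EGFP+ arrays. The probe set 1433422_at read 6.04, 6.05 and 6.20 in the same arrays and stayed between the 52.9 and 56.7 percentile of all probe sets in all 8 arrays. For Nr4a3 the probe set 1421080_at differed by 0.12 (SE 0.18) between the alleles and 1421079_at by -0.43 (SE 0.21), against -1.96 in the leading one. For Cd44, 1434376_at differed by 0.73 (SE 0.28, limma adjusted p = 0.45) between WT EGFP+ and EGFP- cells, and 1443265_at lay at or under the 8.37 percentile in every array. A probe set at a flat low level carries no detection call here. Of the 21 probe sets, 18 had a mean above the median of all (5.76).

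**Figure D4:**
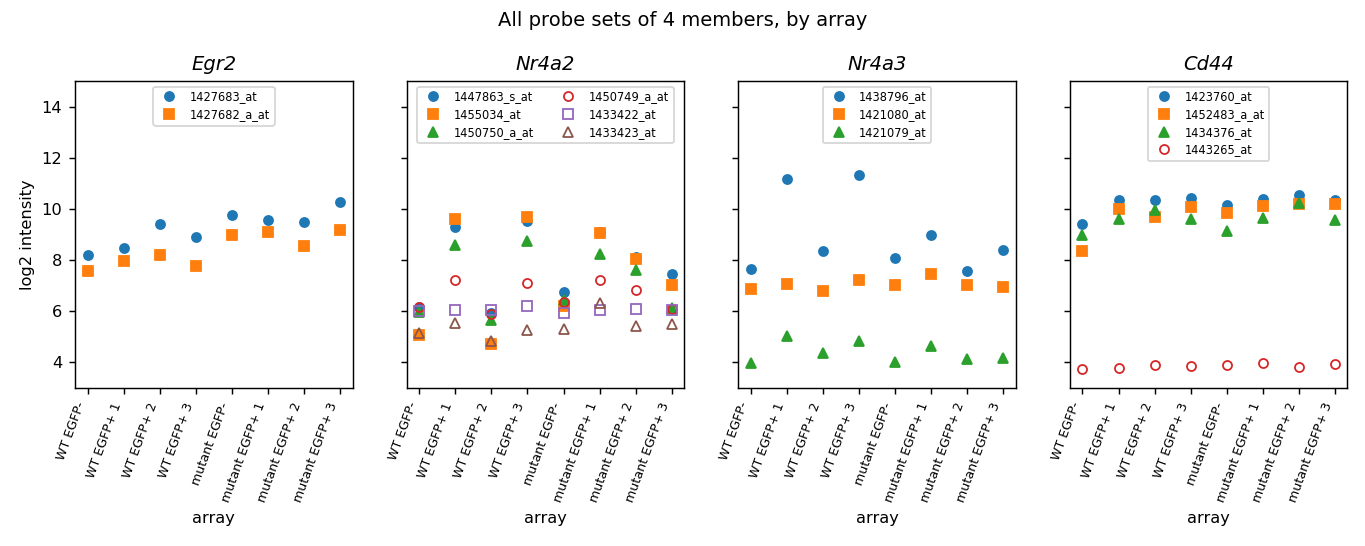
Log2 intensity (y axis) of every probe set of Egr2, Nr4a2, Nr4a3 and Cd44 in each array (x axis). Both Egr2 probe sets read higher in the 4 mutant arrays than in the 4 WT arrays; of the 6 Nr4a2 probe sets 1433422_at is flat near 6.05, and 1443265_at of Cd44 stays near 3.87.

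The genes most like each of the 9 were taken by Pearson correlation over the 8 arrays among 3744 genes whose levels spanned at least 1 on the log2 scale. For Nr4a1 they were Mthfs (0.992), Coq10b (0.990) and the clock gene Per1 (0.985), and for Nr4a2 the small GTPase gene Gem (0.983), Nup50 (0.962) and 9230114K14Rik (0.960). Coq10b, for example, stood at 10.64, 8.40 and 10.88 in the WT EGFP+ arrays, again low in replicate 2. For Nr4a3 they were Prdm2 (0.977), Vgll4 (0.972) and Bcl10 (0.966), an adaptor of receptor signalling to NF-kB. For Cd69 they were Cflar (0.974), an inhibitor of death receptor signalling, Rgs2 (0.961) and Phlda1 (0.958). Rgs2, a regulator of G protein signalling, spanned 7.44 in mutant replicate 3 to 12.47 in WT replicate 3.

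For Egr2 the nearest were Vmp1 (0.992), BC023105 (0.956) and Serpinf1 (0.948), and for Egr3 Psmg3 (0.980), Rpl7l1 (0.974) and Pdik1l (0.966). For Egr1 they were Bicdl1 (0.908), Mau2 (0.877) and Mgst2 (0.859), the lowest values of the 9. For Cd83 they were Tiam1 (0.991), Cd44 (0.991) and Ikzf2 (0.990), the Ikaros family factor typical of regulatory T cells. Ikzf2 stood at 7.98 in the WT EGFP- array, at 11.48 in the mutant EGFP- array and between 12.09 and 12.26 in the EGFP+ arrays. For Cd44 they were Prnp (0.992), Cd83 (0.991) and Twsg1 (0.987). The likeness is over 8 arrays alone.

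Among genes upstream of the Egr and Nr4a factors, calls between the alleles were about as frequent as among all genes. Of 19 measured calcineurin, NFAT, Mef2 and MAP kinase genes and serum response factor partners, 3 fell and 0 rose between the alleles in EGFP+ cells (median difference -0.16, all genes 0.02), against 16.5% of all genes called (6.02% lower). Mef2d, a calcium-regulated factor that acts on the Nr4a1 promoter, differed by -1.40 (SE 0.23, limma adjusted p = 0.0077). It stood at 11.07, 10.13 and 10.95 in the WT and at 9.22, 9.37 and 9.34 in the mutant EGFP+ arrays, so it too was lower in WT replicate 2, without overlap between labels. The kinase Prkd2 differed by -0.71 (SE 0.11, 0.005) and Rasgrp1, which activates Ras downstream of the receptor, by -0.61 (SE 0.10, 0.0083). Of 7 corepressors and partners, 1 rose: Nab1, which binds Egr proteins and represses their activity, differed by 0.51 (SE 0.11, adjusted p = 0.02). Upstream counts without WT EGFP+ replicate 2 were 5 lower and 0 higher, against 19.1% of all genes in either direction.

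Genes reported as Egr2 and Egr3 targets in T cells moved both ways. Of 20 measured, 6 rose and 6 fell between the alleles in EGFP+ cells, with a median of 0.01, against 10.4% of all genes higher and 6.02% lower. The Th1 regulator Tbx21 (3.46, SE 0.27, limma adjusted p = 0.00031), the inhibitory receptor Lag3 (2.33, SE 0.23, 0.00078) and the adhesion receptor Crtam (1.72, SE 0.23, 0.0027) rose, while Id3, an inhibitor of E proteins, fell by 2.19 (SE 0.53, 0.032). Between WT EGFP+ and EGFP- cells 2 rose and 0 fell, against 1.02% and 0.478% of all genes: the costimulatory receptor Tnfrsf9 by 2.72 (SE 0.18, 0.0017) and Nrn1, which encodes neuritin, by 2.59 (SE 0.26, 0.0057). Without WT EGFP+ replicate 2 the counts were 6 higher and 8 lower between the alleles, and 4 higher and 1 lower by EGFP, against 19.1% and 3.19% of all genes in either direction.

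Of 13 measured genes linked to Nr4a factors, 5 rose and 2 fell between the alleles, against 10.4% and 6.02% of all genes. Il4 differed by 5.01 (SE 0.11, limma adjusted p = 3e-06), the inhibitory receptor Havcr2 by 3.33 (SE 0.27, 0.00032) and the receptor Gpr83 by -1.93 (SE 0.27, 0.0033). Tox2, a factor of the Tox family, stood at 7.99, 8.36 and 8.47 in the WT and 10.33, 10.30 and 10.19 in the mutant EGFP+ arrays (adjusted p = 0.00024). Gpr83 stood at 11.42, 12.24 and 11.50 in the WT and 9.68, 9.46 and 10.22 in the mutant EGFP+ arrays, and was not low in WT replicate 2. Between WT EGFP+ and EGFP- cells 5 of the 13 rose and 1 fell, against 1.02% and 0.478% of all genes, led by Ikzf2 (4.18, SE 0.15, adjusted p = 0.00018), Nrp1 (3.78, SE 0.39, 0.006) and Gpr83 (3.18, SE 0.38, 0.0097). For Ikzf2 the EGFP effects of the alleles differed by -3.55 (SE 0.21, 0.0044), the same order of groups as for Cd83.

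Of 31 measured genes induced by receptor signals, 9 rose and 3 fell between the alleles, against 10.4% and 6.02% of all genes. The chemokines Ccl3 (5.20, SE 0.22, limma adjusted p = 4.7e-05), Ccl4 (2.99, SE 0.20, 0.00019) and Xcl1 (2.35, SE 0.25, 0.00098) and the cytokine Ifng (4.05, SE 0.35, 0.00045) led the rises. The counts without WT EGFP+ replicate 2 were 9 and 7, against 19.1% of all genes in either direction. Between WT EGFP+ and EGFP- cells 4 rose and 0 fell, against 1.02% and 0.478% of all genes: Dusp4 (4.87, SE 0.68, 0.019), Il2ra (4.56, SE 0.20, 0.00048), Tnfrsf4 (3.41, SE 0.19, 0.00092) and Icos (1.69, SE 0.16, 0.0048). Without replicate 2 that count was 10 and 0, against 3.19% of all genes in either direction. Of 16 activation-linked genes, mostly surface molecules but with the transcription factors Klf2 and Hif1a, 5 fell and 0 rose between the alleles. The shares of all genes were 6.02% and 10.4%. Among those that fell were S1pr1 (-1.53, SE 0.22, adjusted p = 0.0037), the receptor that Cd69 antagonises, and Klf2 (-1.38, SE 0.14, 8e-04), the factor that drives S1pr1. The list mixes genes induced on activation with genes high in resting T cells, such as S1pr1 and Klf2. Its counts therefore give no direction of activation. Between WT EGFP+ and EGFP- cells 3 of the 16 rose and 0 fell, against 1.02% and 0.478% of all genes: Ctla4 (5.48, SE 0.87, adjusted p = 0.031), Slamf1 (1.45, SE 0.24, 0.04) and Icam1 (1.26, SE 0.20, 0.033).

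Markers of other cells that could carry these genes were read in the same arrays, since B cells and dendritic cells express Cd83 and NK cells Cd69. The summed intensity of 9 B cell genes was 412 in the WT EGFP- array, 395 to 517 in the WT EGFP+, 511 in the mutant EGFP- and 359 to 451 in the mutant EGFP+ arrays. Pax5, Ebf1, Blk, Cr2 and Fcer2a lay below the median of every array. The sum of 14 myeloid and dendritic cell genes was 1627, 1976 to 2988, 1892 and 2046 to 2499 in the same order. In both lists 0 genes passed between the alleles or by EGFP in limma's test; without WT replicate 2, 2 B cell genes and 1 myeloid gene were called lower in the mutant. The sum of 6 NK cell genes was 235, 208 to 282, 2587 and 2975 to 4350. Gzma alone made up most of the sums in the mutant arrays. Its log2 level was 5.31, 5.37 to 5.83, 10.94 and 11.37 to 11.96 in the same order. In this list Gzma, Klrk1 and Eomes rose between the alleles, Gzma and Eomes also being T cell genes. Klra8 and Klre1 lay below the median in every array. Of 2 CD8 T cell genes 0 passed, with sums of 282, 138 to 218, 559 and 156 to 628. The part of other cells in the differences above was not tested.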

How the data were processed

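RNA from 8 sorted samples was extracted with RNEasy and labelled by the Affymetrix biotin method, per the labels' protocols. The authors deposited RMA intensity per probe set, per the labels and the submitters' processing notes, which give no version or settings; the values are on a linear scale. RMA by its usual definition corrects background, quantile-normalizes and summarises probes. RMA compresses low values, so differences from low levels may be understated. Precision is limited by how few arrays there are.

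Of 45101 probe sets 64 controls were left out. By the platform annotation 34945 had 1 symbol, 932 several (left unnamed) and 9160 none; a current record was found for 34741. A mean per group was fitted to log2 intensity (no offset) with limma 3.58.1 in R 4.3.3, with 4 residual and 3.72 prior degrees of freedom, two-sided, Benjamini-Hochberg over all 45037 probe sets. With 3 arrays a side, exact permutation reaches p = 0.1 at best. The fit was also run on simulated arrays, with values drawn independently for each probe set and no outlying array. Those arrays therefore do not bear on calls that hang on a single array.

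All 9 members are named, with up to 4 members past the threshold of each pathway list, by size, and the 3 genes most like each member. The numbers that open the titles fall into 3 sets of 4, 2 and 2 neighbouring numbers of unstated meaning; they served as a block in 1 alternative. Members and lists were chosen with earlier results of these data known. Further alternatives were an offset of 16, a filter on low levels, a second quantile normalization, trended robust variance, array weights, the handling list as a covariate, gene means, the EGFP-positive arrays alone and each EGFP-positive array left out; leaving out the lowest array of each label in the handling list was added after seeing the data.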

Additional observations from a re-analysis of the deposited data

Results flagged for a closer look

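The effect of EGFP on Cd83 differed between the alleles in the test of that difference: EGFP-positive minus EGFP-negative was 4.51 for WT and 0.85 for the mutant, an interaction of -3.67 (SE 0.36, limma adjusted p = 0.045; 0.0087 to 0.26 over 15 alternatives, with 7 of them past the threshold). It rests on the single arrays labelled WT EGFP-negative (6.10) and mutant EGFP-negative (9.90). The direction was the same in all 15 alternatives, from -3.81 to -3.39.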

How the results depend on the processing

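Of 663 recomputed values of single genes, 589 kept direction and side of the threshold, 23 newly passed, 21 no longer passed and 30 changed sign, all of the latter with an adjusted p of 0.12 or more. Cd83 passed between WT EGFP-positive and EGFP-negative cells in all 15 alternatives. Between the alleles the count of members called (0) was 1 among probe sets above the median level, 1 with trended robust variance, 2 with array weights, 1 with the title numbers as a block, 1 with gene means, 6 without the lowest array of each label in the handling list, and 0 to 4 without single arrays. For the WT EGFP comparison (2) it was 1 with the title numbers as a block, 1 with the handling covariate, 6 without the 2 lowest arrays and 1 to 5 without single arrays. For the interaction (1) it was 0 with the offset of 16, 0 with the filter on low levels, 0 with the title numbers as a block and 0 to 1 without single arrays. For the mutant EGFP comparison it was 0 throughout.

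Signs changed between the alleles with the handling covariate for Nr4a1 (0.27), Nr4a2 (2.20) and Cd69 (0.76), with gene means for Nr4a2 (0.02), and without single arrays for Nr4a2 (-1.21 to 0.60), Cd83 (-0.01 to 0.29) and Cd44 (0.00 to 0.10). In the WT EGFP comparison they changed with the handling covariate for Egr1 (-0.05) and Cd69 (-0.14), and without single arrays for Egr1 (-0.20 to 0.27). In the mutant EGFP comparison they changed for Egr2 with a second quantile normalization (0.03, and 0.01 in 1427682_a_at), the covariate (0.05) or, in 1427682_a_at, the title numbers (0.06), and without single arrays (-0.25 to 0.14, and -0.14 to 0.17 in 1427682_a_at). Egr3 there gave -0.13 with the title numbers, -0.05 without the 2 lowest arrays and -0.05 to 0.16 without single arrays, and Nr4a3 -0.08 to 0.62 without single arrays. In the interaction Cd69 gave -0.12 with array weights and -0.46 to 0.67 without single arrays, and Nr4a2 0.34 with the covariate and -1.75 to 0.06 without single arrays. The cause of these changes was not tested. The labels give no replicate numbers that groups share, so the sets of neighbouring title numbers, of unstated meaning, were the sole block tried.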
